A study of Rattus norvegicus with 56 samples.

Results

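Maternal serum was compared between 7 samples labelled for rat fetuses with a ventricular septal defect (VSD group) and 7 negative control samples (NC group). These 14 of the 56 samples of the series were taken by their labels, and all 518 microRNAs listed for serum were considered. The animals were Sprague-Dawley rats, and serum was drawn from the dam on embryonic day 19 (D19). Dams of the VSD group had been gavaged with dimethadione (DMO), the active metabolite of the anticonvulsant trimethadione and a known cause of heart defects in rat fetuses. The dose was 5 ml/kg of a 60 mg/ml solution, every 12 h for 6 doses from D8. NC dams received distilled water on the same schedule. A VSD is an opening in the wall between the ventricles of the heart. There was no serum of DMO dams whose fetuses had an intact septum, so exposure of the dam to DMO and VSD in the fetus cannot be told apart. The labels do not say that each sample is a separate dam, or how many fetuses of a litter were affected, and p-values measure the spread between these samples.

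MicroRNAs are short RNAs that pair with messenger RNAs mainly through the seed, bases 2 to 8 of the mature strand, and lower the output of their targets. They are stable in serum, where they are carried in vesicles and protein complexes. Serum of a pregnant animal holds microRNAs from blood cells, liver, muscle and other maternal organs, together with those released by the placenta. A pair of clusters is known for expression in early embryonic cells and the placenta. The miR-290-295 cluster is a rodent cluster of pluripotent cells that is also active in trophoblast, and the cluster of the Dlk1-Dio3 locus is imprinted and transcribed from the maternally inherited allele. A serum level cannot tell a change in the number of releasing cells from a change in the amount each cell releases.

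The 10 microRNAs that met the study's threshold for a differentially expressed microRNA (DE-microRNA, unadjusted p under 0.05 with levels changed to 2 times or more, or to 0.5 times or less) were all higher in the VSD group. Their mature sequences (RefSeq, GRCr8) are shown with the seed in capitals, grouped by cluster.
miR-291a-5p (chr1:74879804-74879825, minus strand): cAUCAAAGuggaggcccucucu
miR-292-5p (chr1:74879518-74879539, minus strand): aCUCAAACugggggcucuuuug
miR-540-3p (chr6:134321475-134321496, plus strand): aGGUCAGAggucgauccugggc
miR-433-3p (chr6:134327421-134327442, plus strand): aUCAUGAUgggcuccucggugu
miR-1188-5p (chr6:134348163-134348183, plus strand): uGGUGUGAgguugggccagga
miR-494-3p (chr6:134550163-134550185, plus strand): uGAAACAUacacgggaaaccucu
miR-134-5p (chr6:134570320-134570341, plus strand): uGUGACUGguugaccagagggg
miR-541-5p (chr6:134578434-134578458, plus strand): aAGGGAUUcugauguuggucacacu
miR-877 (chr20:2816284-2816303, plus strand): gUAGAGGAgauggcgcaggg
miR-206-3p (chr9:30590747-30590768, plus strand): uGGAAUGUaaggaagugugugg
The first pair belongs to the miR-290-295 cluster, the next 6 to the Dlk1-Dio3 locus, and the last pair to neither. No seed was shared among the 10. A sequence was found for 200 of the 219 microRNAs tested. Over these 200, the share of G and C bases correlated with the log2 fold change (VSD over NC) at a Spearman coefficient of 0.291. Over the 182 outside the Dlk1-Dio3 locus it was 0.254. The median share was 54.5% for the 10 and 50% for all 200, and a part of base composition in the calls was not tested.

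Serum libraries were small. Totals of the NC group were between 271578 and 581350 counts, and those of the VSD group between 147609 and 370867. The mean log2 total of the VSD group differed by -0.63 from that of the NC group (exact permutation test, two-sided, p = 0.039). Counts were scaled by TMM, which assumes that most microRNAs do not change, and are given as CPM (counts per 1e6). By library total alone, before TMM scaling, a count of 0 allowed up to 5.16 CPM in the largest library. In the smallest, VSD sample 4, it allowed up to 20.3 CPM, counting error only. Within a group, the log2 CPM of any pair of samples had a Pearson correlation of 0.914 to 0.989 across microRNAs. After thinning to equal depth, an NC library showed a median of 344 microRNAs and a VSD library 346, a difference of means of 9.86 (exact permutation test, two-sided, p = 0.290). The most abundant microRNAs of NC serum were miR-191a-5p, miR-16-5p, miR-486, miR-223-3p and miR-128-3p. MiR-486 and miR-16-5p are abundant in red blood cells and miR-223-3p in myeloid cells. Of these 5, only miR-486 differed at an unadjusted p under 0.05. MiR-191a-5p had a log2 fold change of 0.11, miR-16-5p of -0.29, miR-223-3p of 0.49 and miR-128-3p of 0.34.

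Of 219 microRNAs with enough counts to be tested, 10 were upregulated DE-microRNAs (4.57%) and 0 were downregulated. These 219 held 99.78% of the counts. At an unadjusted p under 0.05, whatever the fold change, 19 were higher (8.68%) and 11 were lower (5.02%) in the VSD group. Scaling by library size only gave 21 higher and 5 lower. No microRNA reached a Benjamini-Hochberg adjusted p under 0.05 in edgeR's quasi-likelihood test, where the lowest was 0.110. DESeq2 gave 4 (miR-291a-5p, miR-292-5p, miR-433-3p and miR-1188-5p) and limma 0. Taking the replicate number as a block, edgeR gave 5 (miR-134-5p, miR-291a-5p, miR-382-5p, miR-433-3p and miR-540-3p), though the labels state no pairing. With no filter on low counts, edgeR gave 3, of which miR-291a-5p and miR-292-5p were higher and miR-488-3p, described with the scarce microRNAs, was lower. The median log2 fold change over all tested microRNAs was -0.028, with 104 above 0 and 115 below. Changes were called here by the study's unadjusted threshold, which is given in its methods, and each one is given with its adjusted p. Without VSD sample 2, 5 DE-microRNAs were called.

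**Figure D1:**
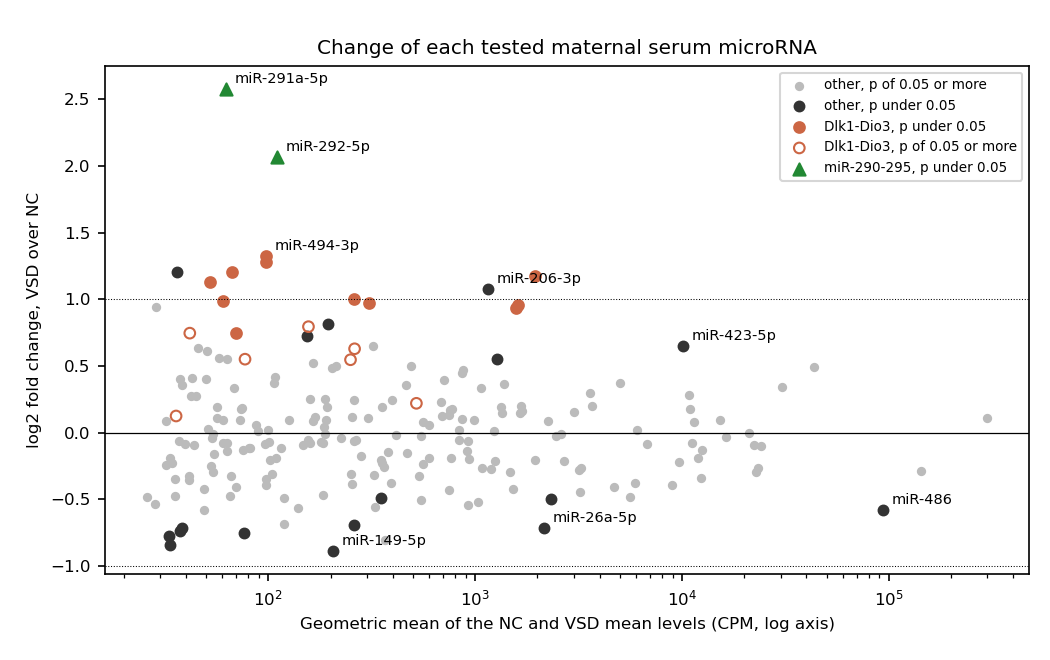
Each point is 1 of the 219 tested microRNAs, with its level in CPM on a log axis and its log2 fold change (VSD over NC) on the vertical axis; dotted lines mark fold changes of 2 and 0.5. Both miR-290-295 members lie above 2 on the log2 scale, all 18 Dlk1-Dio3 members lie above 0, and the 11 microRNAs lower at an unadjusted p under 0.05 lie between -0.89 and -0.49.

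Both tested members of the miR-290-295 cluster were upregulated, against 4.57% of all tested microRNAs, and had the highest fold changes of the comparison. This list too was chosen with earlier results of these data known, so its counts stand as a description. MiR-291a-5p ran from 9.64 to 38.0 CPM in the NC group (median 25.4) and from 9.37 to 523 CPM in the VSD group (median 75.8). Its highest value was in VSD sample 2, followed by samples 4 (214 CPM) and 3 (174 CPM). Thus 6 of the 7 VSD samples lay above all NC samples, and VSD sample 6 lay below all of them (exact permutation test, two-sided, p = 0.0227). This gave a log2 fold change of 2.58 ± 0.62 (SE; edgeR, adjusted p = 0.110).

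MiR-292-5p ran from 28.5 to 101 CPM in the NC group (median 46.3) and from 28.1 to 710 CPM in the VSD group (median 116). Again VSD sample 2 was highest, at 710 CPM, and VSD sample 6 lowest, with 5 VSD samples above all NC samples (exact permutation test, two-sided, p = 0.0239). On the log2 scale the fold change was 2.07 ± 0.53 (SE; edgeR, adjusted p = 0.110). Samples 2 and 4, highest for miR-291a-5p, were also the smallest libraries. Without both of them the log2 fold changes were 1.51 for miR-291a-5p and 1.17 for miR-292-5p, each still at an unadjusted p under 0.05. With every library thinned to the smallest, miR-292-5p kept a log2 fold change of 1.91, or 2.06 in another draw, whereas miR-291a-5p had too few counts for the test.

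The cluster lists 4 further mature microRNAs in serum, all with too few counts to be tested. Their sequences are shown because some repeat the seed of miR-292-5p.
miR-290: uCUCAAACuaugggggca
miR-292-5p: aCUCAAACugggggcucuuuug
miR-293-5p: aCUCAAACugugugacacuuu
miR-292-3p: aAGUGCCGccagguuuugagugu
miR-295-3p: aAGUGCUAcuacuuuugggugu
MiR-290, miR-292-5p and miR-293-5p have the same seed, CUCAAAC. Over the 7 samples of a group, miR-290 had 17 counts in VSD and 4 in NC serum. MiR-293-5p had 117 and 61 counts, with levels from 6.34 to 33.3 CPM in the NC group and from 3.12 to 218 CPM in the VSD group. As for its neighbours, VSD sample 2 was highest and VSD sample 6 lowest for miR-293-5p, and 3 VSD samples exceeded all NC samples (exact permutation test, two-sided, p = 0.289). In a fit without a filter on low counts, miR-290 had a log2 fold change of 2.48 ± 0.90 (SE; edgeR, adjusted p = 0.255) and miR-293-5p of 1.596 ± 0.573 (SE; edgeR, adjusted p = 0.255). The 3p arms were rare, with 5 counts in each group for miR-292-3p, while miR-295-3p had 5 in NC serum and 0 in VSD serum. The matched sequence of miR-295-3p lies apart from the other members, at chr1:82352201-82352222 on the plus strand. Averaged over miR-291a-5p and miR-292-5p, the log2 CPM was 4.82 to 5.85 in NC samples. It was 6.2, 9.3, 7.8, 8.0, 6.5, 4.5 and 6.3 in VSD samples 1 to 7. All VSD samples but the sixth were above the NC range.

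**Figure D2:**
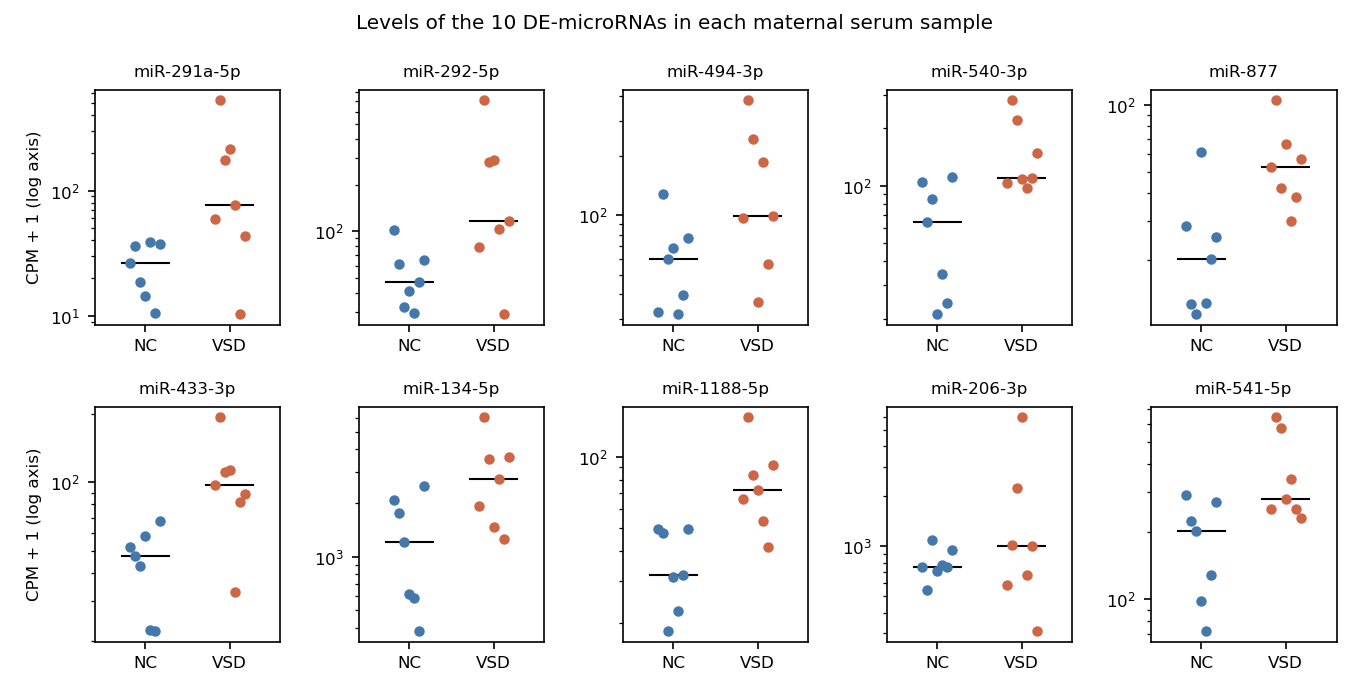
Level (CPM + 1, log axis) of each of the 10 DE-microRNAs in the 7 NC and 7 VSD samples, with a line at the group median. The VSD median is above the NC median in every panel; groups overlap in every panel, by 1 low VSD sample for miR-291a-5p and most widely for miR-206-3p, where 1 VSD sample reaches 5977 CPM.

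At the Dlk1-Dio3 locus, 67 mature microRNAs were listed and 18 were tested, and all 18 had a positive log2 fold change. Of the 18, 6 were upregulated DE-microRNAs and 11 were higher at an unadjusted p under 0.05 (61.1%), against 8.68% of all tested microRNAs and 3.98% of the 201 outside the locus. None was lower. The median log2 fold change was 0.95 over the 18, with a range from 0.12 to 1.33, and -0.063 over the 201. The list was chosen with earlier results of these data known, so its counts stand as a description. The other 49 members were under the filter, with 931 counts over the NC samples and 898 over the VSD samples. These are raw counts, and VSD libraries were smaller (median total 300005 against 496237 for NC), so the counts cannot be compared as levels.

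The DE-microRNAs of the locus differed in level by more than an order of magnitude. MiR-134-5p, a regulator of dendritic spines in neurons, was the most abundant, at 382 to 2476 CPM in the NC group (median 1206) and 1259 to 6035 CPM in the VSD group (median 2730). Every VSD sample exceeded the NC median and 4 exceeded all NC samples. Its log2 fold change was 1.17 ± 0.41 (SE; edgeR, adjusted p = 0.183). MiR-541-5p was at 71.3 to 289 CPM (median 199) in the NC group and 228 to 642 CPM (median 279) in the VSD group, with 3 VSD samples above all NC samples, for a log2 fold change of 1.001 ± 0.334 (SE; edgeR, adjusted p = 0.176).

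MiR-540-3p was at 20.2 to 109 CPM (median 63.3) in the NC group and 96.2 to 280 CPM (median 109) in the VSD group. Each of the 7 VSD samples exceeded the NC median, and the log2 fold change was 1.28 ± 0.39 (SE; edgeR, adjusted p = 0.173). MiR-1188-5p was at 17.5 to 48.7 CPM (median 30.8) and 40.6 to 145 CPM (median 71.2). Here 6 VSD samples were above all NC samples and the remaining sample, VSD 6, was above the NC median. Its log2 fold change was 1.13 ± 0.32 (SE; edgeR, adjusted p = 0.150; exact permutation test, two-sided, p = 0.00408).

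MiR-433-3p lies opposite the coding sequence of Rtl1, an imprinted gene needed by the placenta. It was at 21.2 to 66.9 CPM in the NC group (median 46.7) and 32.1 to 192 CPM in the VSD group (median 95.9). Only VSD sample 5 fell inside the NC range, and the log2 fold change was 1.21 ± 0.35 (SE; edgeR, adjusted p = 0.150). MiR-494-3p had the highest fold change of the locus and the least even one, with 30.9 to 127 CPM in the NC group (median 59.4) and 35.6 to 378 CPM in the VSD group (median 98.2). VSD samples 2, 3 and 5 were above all NC samples, and VSD samples 4 and 6 were below the NC median. The log2 fold change of 1.33 ± 0.45 (SE) had an adjusted p of 0.176 by edgeR.

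A further 5 members were higher at an unadjusted p under 0.05 with fold changes under 2. MiR-770-3p, from an intron of the noncoding RNA gene Meg3, had a log2 fold change of 0.99, and miR-434-3p, opposite Rtl1, of 0.97. MiR-409a-3p, miR-382-5p and miR-300-3p had log2 fold changes of 0.96, 0.94 and 0.75. Adjusted p-values of the 5 were 0.197 to 0.326 by edgeR. MiR-382-5p, with the lowest p of them, ran from 416 to 1908 CPM in the NC group (median 944) and from 1312 to 3916 CPM in the VSD group (median 1929). All VSD samples of miR-382-5p were above the NC median and 4 were above all NC samples. MiR-127-3p, also opposite Rtl1 and the most abundant of the members that did not pass, had a log2 fold change of 0.22 ± 0.29 (SE). MiR-668 had the smallest, 0.12 ± 0.42 (SE).

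The tested members lie in 2 groups along 281 kb of the plus strand of chromosome 6. The first, from miR-770-3p to miR-1188-5p, has 8 members over 50.03 kb, of which 5 were higher at an unadjusted p under 0.05. The second, from miR-323-3p to miR-409a-3p, begins 249 kb from the first member and has 10 members, of which 6 were higher. Among neighbours, miR-127-3p and miR-668 stood below the members on either side of them.

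**Figure D3:**
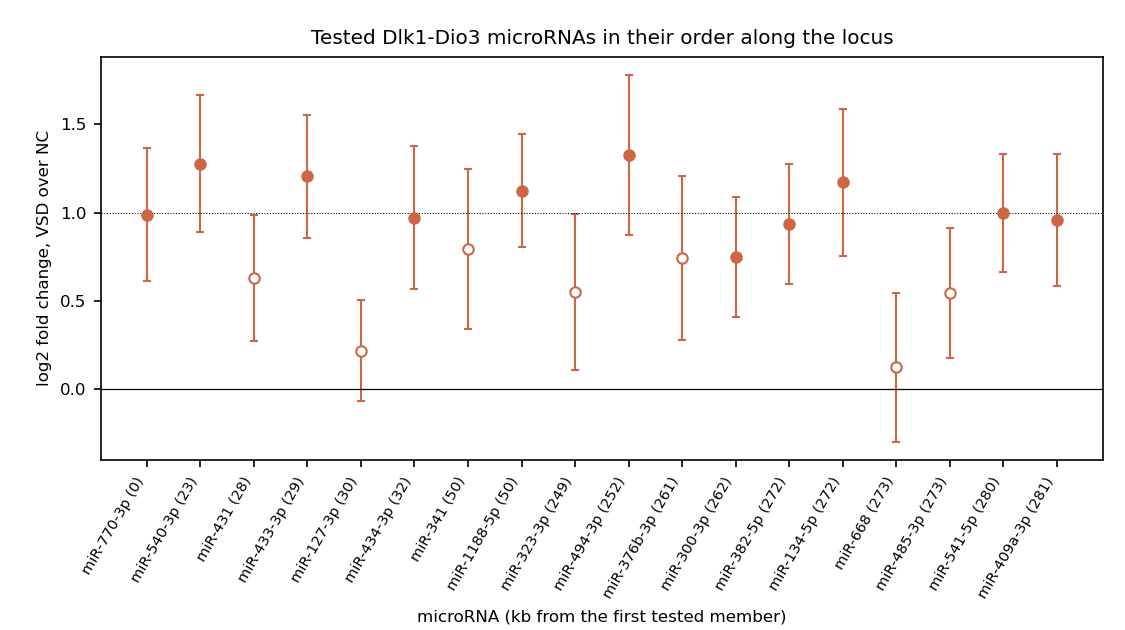
Log2 fold change (VSD over NC) with its standard error for the 18 tested Dlk1-Dio3 microRNAs, in order along the locus, with the distance from the first in kb after each name; filled points have an unadjusted p under 0.05. All 18 lie above 0, with filled points in both parts of the locus and the lowest values at miR-127-3p and miR-668.

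Averaged over the 18 members, the log2 CPM of NC samples 1 to 7 was 7.5, 7.8, 6.8, 6.7, 6.0, 6.2 and 7.6. That of VSD samples 1 to 7 was 7.5, 8.8, 8.4, 7.6, 7.6, 7.2 and 7.8. The NC median was exceeded by all 7 VSD samples and the whole NC range by 3. NC samples 5 and 6 were lowest, and NC samples 1, 2 and 7 lay within the VSD range. VSD sample 2 was the highest VSD sample for 16 of the 18 members, and NC sample 5 was the lowest NC sample for 10. Without VSD sample 2, 8 members were higher at an unadjusted p under 0.05, and over all 14 samples left out in turn there were 8 to 13. Thinning of every library to the smallest left 6 in one draw and 7 in another.

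Outside both clusters, miR-877, miR-206-3p, miR-320-3p, miR-298-5p, miR-423-5p and miR-150-3p were higher at an unadjusted p under 0.05. MiR-877 is a mirtron, cut from a spliced intron of Abcf1 without Drosha. It was at 10.5 to 60.5 CPM in the NC group (median 19.3) and 29.1 to 104 CPM in the VSD group (median 51.4). Levels exceeded the NC median in all 7 VSD samples, although NC sample 4 was higher than all but 2 of them. A log2 fold change of 1.21 ± 0.40 (SE; edgeR, adjusted p = 0.176) resulted. MiR-320-3p, made from a capped precursor without Drosha, had a log2 fold change of 0.55 ± 0.19 (SE; edgeR, adjusted p = 0.176). It ran from 813 to 1277 CPM in the NC group and from 1139 to 2142 CPM in the VSD group, with 5 VSD samples above all NC samples.

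MiR-298-5p, from the imprinted Gnas region, had a log2 fold change of 0.81 ± 0.35 (SE; edgeR, adjusted p = 0.310). MiR-423-5p ran from 4030 to 12658 CPM in the NC group (median 7998), against 5388 to 26277 CPM in the VSD group (median 10422). Its log2 fold change of 0.65 ± 0.30 (SE; edgeR, adjusted p = 0.326) fell to 0.29 without VSD sample 7, the highest. For miR-150-3p, the passenger arm of a lymphocyte microRNA, it was 0.72 ± 0.33 (SE; edgeR, adjusted p = 0.326) and 0.37 without the same sample.

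MiR-206-3p, a microRNA of skeletal muscle that shares its seed with the miR-1 family of heart and skeletal muscle, is shown with its relatives.
miR-206-3p: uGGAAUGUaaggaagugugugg
miR-1-3p: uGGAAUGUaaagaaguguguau
miR-1b: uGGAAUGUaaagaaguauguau
MiR-206-3p met the DE-microRNA threshold through 1 sample. It ran from 543 to 1098 CPM in the NC group (median 753) and from 309 to 5977 CPM in the VSD group (median 1012). VSD samples 3 and 4 were above all NC samples, at 2237 and 5977 CPM, and VSD sample 7 was below all of them. Other groupings of the samples often gave as large a difference in mean log2 CPM (exact permutation test, two-sided, p = 0.446), and the log2 fold change of 1.08 ± 0.48 (SE; edgeR, adjusted p = 0.326) was 0.30 without VSD sample 4. Its p was also no longer under 0.05 without VSD sample 3 or without NC sample 1, 2, 4 or 5. MiR-1-3p and miR-1b, with the same seed, had negative log2 fold changes of -0.52 ± 0.55 (SE; edgeR, adjusted p = 0.708) and -0.81 ± 0.56 (SE; edgeR, adjusted p = 0.543). VSD samples 3 and 4 were also the highest VSD samples for miR-1-3p (1710 and 2517 CPM), within the NC range of 313 to 2711 CPM.

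The 11 microRNAs lower at an unadjusted p under 0.05 had fold changes above 0.5. MiR-149-5p, from an intron of the glypican gene Gpc1, had the lowest p among them. It ran from 118 to 390 CPM in the NC group (median 276) and from 87.7 to 254 CPM in the VSD group (median 134), and all 7 VSD samples were below the NC median. The log2 fold change was -0.89 ± 0.29 (SE; edgeR, adjusted p = 0.176). MiR-301a-3p, a member of the miR-130 family, was the one tested microRNA of the 219 (0.457%) whose groups did not overlap. Its levels were 39.5 to 57.8 CPM in the NC group (median 52.4) and 20.7 to 37.9 CPM in the VSD group (median 29.7). The log2 fold change was -0.71 ± 0.25 (SE; edgeR, adjusted p = 0.176). These levels rest on 143 and 59 counts over the 7 samples of each group.

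MiR-99a-5p and miR-125b-2-3p, which come from 1 cluster together with let-7c, had log2 fold changes of -0.69 ± 0.24 (SE; edgeR, adjusted p = 0.176) and -0.77 ± 0.31 (SE; edgeR, adjusted p = 0.262). MiR-99a-5p was at 170 to 434 CPM in the NC group (median 335) and 130 to 273 CPM in the VSD group (median 195). MiR-125b-2-3p was at 21.3 to 69.9 CPM (median 40.3) and 17.5 to 35.6 CPM (median 24.0). All 7 VSD samples of either were below the NC median. Their neighbour let-7c-5p did not pass, at -0.30 ± 0.21 (SE).

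Some of the lower microRNAs shared a seed with each other or with abundant relatives. These are shown as families, first the 3p arms of miR-181, then miR-26 and miR-30.
miR-181a-1-3p: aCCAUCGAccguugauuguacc
miR-181c-3p: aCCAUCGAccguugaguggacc
miR-26a-5p: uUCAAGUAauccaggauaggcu
miR-26b-5p: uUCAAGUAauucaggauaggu
miR-30e-5p: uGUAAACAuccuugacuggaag
miR-30a-5p: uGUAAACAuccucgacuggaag
miR-30c-5p: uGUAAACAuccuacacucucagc
MiR-181a-1-3p had a log2 fold change of -0.84 ± 0.33 (SE; edgeR, adjusted p = 0.243), with 24.3 to 60.5 CPM in the NC group and 11.7 to 41.5 CPM in the VSD group. MiR-181c-3p had one of -0.76 ± 0.32 (SE; edgeR, adjusted p = 0.306), with 42.6 to 160 CPM and 29.7 to 89.0 CPM. For both, all 7 VSD samples were below the NC median. How reads that match several such close relatives were counted is not given in the sources used here. Precursors of miR-181a-1 and miR-181c lie on different chromosomes (13 and 19).

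MiR-26a-5p, a widely expressed microRNA, ran from 1466 to 4646 CPM in the NC group (median 2932) and from 968 to 2762 CPM in the VSD group (median 1617). Its log2 fold change was -0.72 ± 0.30 (SE; edgeR, adjusted p = 0.291), and that of miR-26b-5p, which did not pass, was -0.42 ± 0.26 (SE). MiR-30e-5p ran from 1779 to 3635 CPM (median 2688) in the NC group and from 1406 to 2751 CPM (median 1846) in the VSD group, a log2 fold change of -0.50 ± 0.21 (SE; edgeR, adjusted p = 0.306). MiR-30a-5p and miR-30c-5p, with the same seed, were at -0.38 and -0.43 and did not pass. The remaining microRNAs lower at an unadjusted p under 0.05 were miR-542-3p (-0.73), miR-361-3p (-0.49) and miR-486 (-0.58), each with an adjusted p of 0.326 to 0.335 by edgeR. MiR-542-3p and miR-361-3p are X-linked.

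With each of the 14 samples left out in turn, 15 of the 30 microRNAs stayed at an unadjusted p under 0.05 throughout. Among them were 9 DE-microRNAs (all but miR-206-3p), and miR-382-5p, miR-770-3p, miR-149-5p, miR-99a-5p, miR-181a-1-3p and miR-301a-3p. MiR-26a-5p and miR-125b-2-3p were lost only without NC sample 6, at log2 fold changes of -0.52 and -0.65. MiR-30e-5p was lost without NC sample 6 or VSD sample 4, miR-361-3p without NC sample 1 or VSD sample 2, miR-409a-3p without NC sample 4 or VSD sample 2, and miR-320-3p without NC sample 2 or VSD sample 7. MiR-434-3p and miR-181c-3p were lost in 4 of the 14 fits, miR-542-3p in 6, miR-298-5p and miR-486 in 7, miR-423-5p in 8, and miR-300-3p and miR-150-3p in 9. Every direction stayed the same in these fits.

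Markers of the cells that feed serum were examined as lists, by counts in each direction beside the 8.68% higher and 5.02% lower of all tested microRNAs. Of the red blood cell list (miR-144, miR-451 and miR-486), 2 of 5 members were tested and 1, miR-486, was lower. It ran from 66583 to 192243 CPM in the NC group (median 86719) and from 43764 to 109761 CPM in the VSD group (median 81040 CPM). The other tested member, miR-451-5p, had a log2 fold change of -0.50 ± 0.45 (SE; edgeR, adjusted p = 0.656). The summed level of the list was 66896 to 192852 CPM in NC and 43932 to 111149 CPM in VSD samples. A usual index of red cell lysis, log2 of the miR-451-5p to miR-23a-3p ratio, averaged -3.62 ± 0.82 for NC and -4.17 ± 1.20 for VSD samples (SD, n = 7 each; exact permutation test, two-sided, p = 0.334). The white blood cell list had 8 of 8 members tested, with 6 positive and 1, miR-150-3p, higher at an unadjusted p under 0.05. Its summed level was 40207 to 76708 CPM in NC and 54727 to 94826 CPM in VSD samples. MiR-223-3p, the most abundant, ran from 22173 to 54786 CPM in the NC group and from 24121 to 74032 CPM in the VSD group. Its log2 fold change was 0.49 ± 0.24 (SE; edgeR, adjusted p = 0.372).

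Of the 10 listed microRNAs of heart and skeletal muscle, 5 were tested. MiR-206-3p was higher, and miR-1-3p, miR-1b, miR-133a-3p and miR-133b-3p had log2 fold changes of -0.52, -0.81, -0.48 and -0.69, none at an unadjusted p under 0.05. The heart-enriched microRNAs were near 0. MiR-208a-3p had 27 counts over the NC and 3 over the VSD samples, and miR-208b-3p had 20 and 2. MiR-499-5p had 45 and 29 counts. MiR-208a-3p had counts in all 7 NC samples, at 3.04 to 20.2 CPM, and in 3 VSD samples, where the highest was 5.94 CPM (exact permutation test, two-sided, p = 0.00758, unadjusted). A count of 0 in a single VSD library allows 8.09 to 20.3 CPM. With counts pooled over each group, the level of miR-208a-3p was 0.165 times that of the NC group (95% counting interval 0.0321 to 0.538). That of miR-208b-3p was 0.149 times (0.0169 to 0.613). Both intervals leave out the spread between samples. By sample, miR-208b-3p ran from 0 to 14.3 CPM in the NC group and from 0 to 5.94 CPM in the VSD group (exact permutation test, two-sided, p = 0.0659, unadjusted). With no filter on low counts, edgeR gave miR-208a-3p an adjusted p of 0.255 and miR-208b-3p of 0.316. The summed muscle level was 3896 to 17677 CPM in NC and 2114 to 20138 CPM in VSD samples, with VSD sample 4 highest and VSD sample 7 lowest.

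Liver microRNAs followed a similar order over samples. MiR-122-5p, the main microRNA of hepatocytes, ran from 5189 to 31852 CPM in the NC group (median 8174) and from 3574 to 38591 CPM in the VSD group (median 5600). VSD sample 4 was highest and VSD sample 3 second in that group, as for muscle, and NC samples 3 and 5 were highest among controls. The log2 fold change of miR-122-5p was -0.34 ± 0.56 (SE; edgeR, adjusted p = 0.808). None of the 3 liver members tested passed. The same was true of the 5 microRNAs of vessel wall, all negative (-0.28 to -0.08, median -0.27), of 9 epithelial, 3 neural, 10 let-7 and 2 growth-imprinted microRNAs, and of the 1 X-linked germline microRNA. Of 15 microRNAs of the miR-17-92 family of clusters, which are linked to cell proliferation, 12 were negative with a median of -0.09. Over all 219 tested, 115 were negative with a median of -0.028. In 7 of 7 VSD samples their mean log2 CPM fell short of the NC median. The groups overlapped, at 7.91 to 8.43 in VSD and 8.06 to 8.67 in NC samples. None of the 15 passed, and miR-20a-5p came closest to the threshold, with a log2 fold change of -0.56 ± 0.27 (SE; edgeR, adjusted p = 0.356). The part of blood cell, muscle and liver RNA in the results above was not tested.

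**Figure D4:**
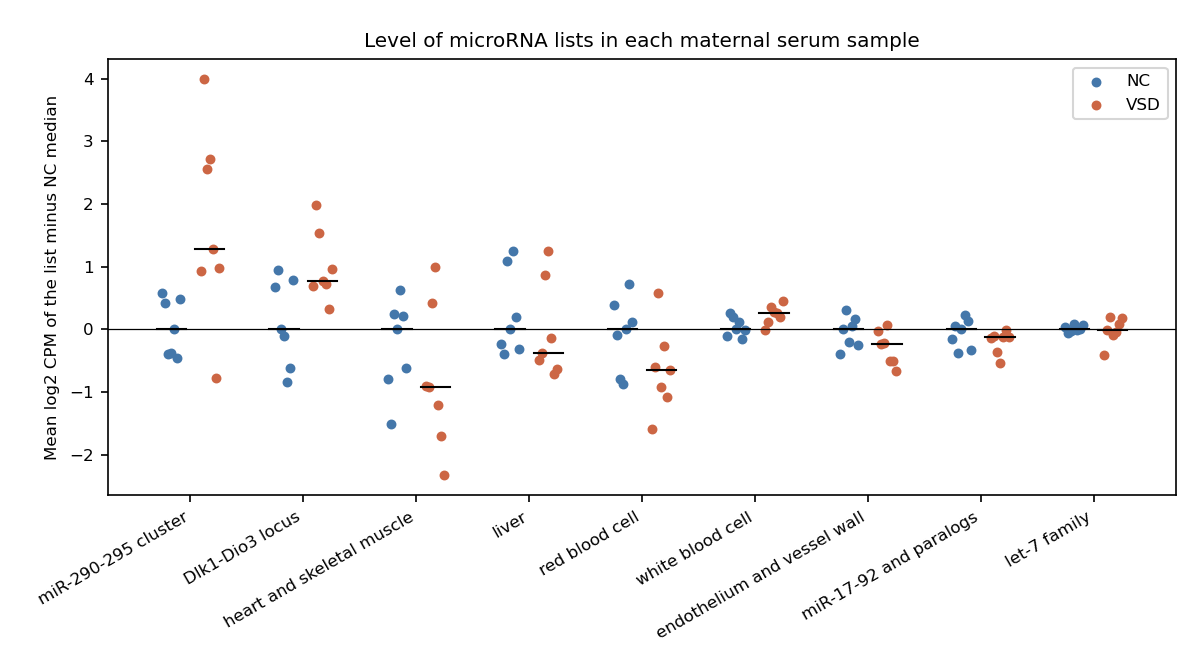
Level (mean log2 CPM over tested members) of 9 microRNA lists in each serum sample, as the difference from the NC median of that list; bars are group medians. Of the VSD samples, 6 of 7 for miR-290-295 and 7 of 7 for Dlk1-Dio3 lie above 0, whereas 2 lie above 0 for muscle, 2 for liver, 1 for red blood cell and 0 for miR-17-92 microRNAs.

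The changes of the 10 DE-microRNAs were then set against the changes in fetal myocardium and in amniotic fluid of the same study groups (7 VSD and 7 NC samples each), to ask whether serum moved as the fetal compartments did. The 10 were chosen by these serum values, which tilts any difference between serum and another compartment towards serum, so such differences are given as a description. A permutation test of them gave an unadjusted p under 0.05 in 3 of 19 cases and an adjusted p under 0.05 in 0 (lowest 0.104). Only the change within the other compartment was free of that choice, and its own exact permutation p is given. Amniotic fluid libraries were made with another kit, so only changes were compared. Of the 10, 6 of the 9 measured in myocardium and 7 in amniotic fluid changed in the same direction as in serum. The share of all microRNAs that rose in each compartment was not examined, so these counts are a description. Those in amniotic fluid include changes as small as 0.04 (miR-134-5p) and 0.09 (miR-291a-5p). They also include miR-877, with 0 counts over the NC and 16 over the VSD samples of amniotic fluid. Among these 19 changes (9 in myocardium and 10 in amniotic fluid), 1 had an unadjusted p under 0.05, that of miR-292-5p in amniotic fluid, with a Benjamini-Hochberg adjusted p of 0.0554.

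MiR-292-5p changed by 1.51 in mean log2 CPM in serum and by 1.29 in amniotic fluid, a difference of 0.22. In amniotic fluid it ran from 232 to 671 CPM in NC and from 527 to 2407 CPM in VSD samples (exact permutation test, p = 0.00291). In myocardium it was scarce, at 0.087 to 4.68 CPM in NC and 0.17 to 3.25 CPM in VSD samples. Its change there was -0.70 (exact permutation test, p = 0.253). MiR-291a-5p had only 9 and 15 counts over the NC and VSD samples of amniotic fluid, and under 10 in the myocardium.

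The Dlk1-Dio3 DE-microRNAs changed by 1.02 to 1.33 in serum and by -0.32 to 0.21 in amniotic fluid. The widest gap was that of miR-540-3p, with 1.33 in serum and -0.32 in amniotic fluid, a difference of 1.65. In myocardium the same 6 changed by 0.10 to 0.89. MiR-494-3p changed by 0.89 there (exact permutation test, p = 0.105) and miR-541-5p by 0.75 (exact permutation test, p = 0.138), below their serum changes by 0.15 and 0.27. Both differences turned negative with scaling by library size only. MiR-877 rose by 1.13 in serum and changed by -0.36 in myocardium (exact permutation test, p = 0.26). MiR-206-3p varied most, from 263 to 57507 CPM in NC and from 375 to 282314 CPM in VSD amniotic fluid, a change of 1.29 (exact permutation test, p = 0.481).

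**Figure D5:**
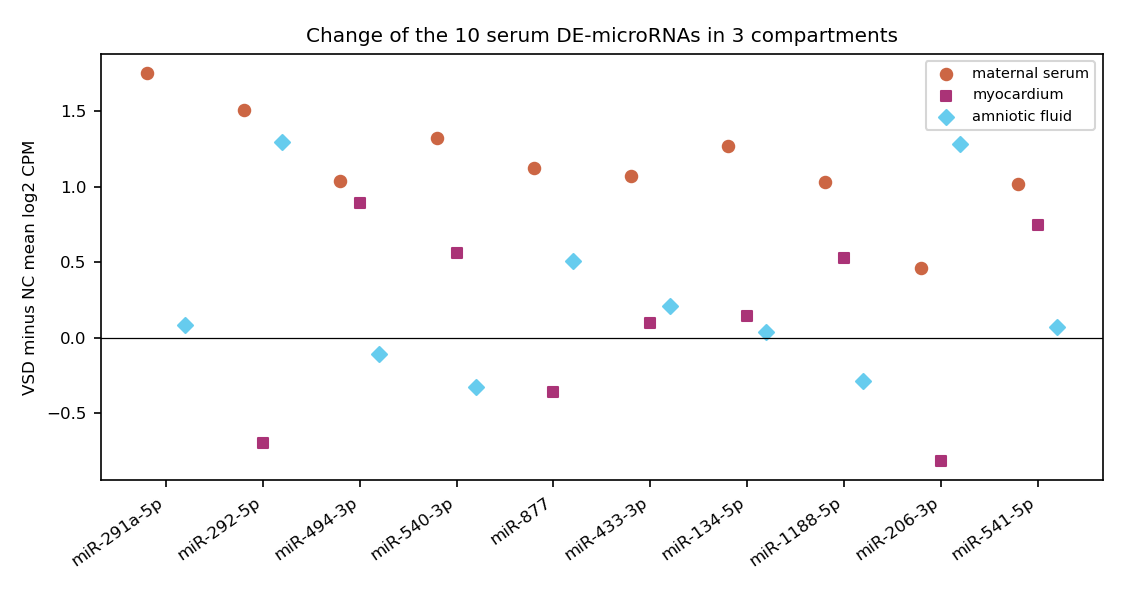
VSD minus NC difference of mean log2 CPM of the 10 serum DE-microRNAs in maternal serum (circles), fetal myocardium (squares) and amniotic fluid (diamonds). MiR-292-5p is high in serum and amniotic fluid and below 0 in myocardium, and the amniotic fluid values of the 6 Dlk1-Dio3 microRNAs lie between -0.32 and 0.21.

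Of the 299 microRNAs with too few counts to be tested, 2 had counts in at least 4 samples of one group and 0 in the other. MiR-217-5p had 6 and miR-873-3p 9 counts over the NC samples, and neither had any in VSD serum (p = 0.0699 for each in a two-sided exact permutation test, unadjusted). MiR-3580-3p had 31 counts over the NC and 53 over the VSD samples. All 7 VSD samples of miR-3580-3p (12.5 to 44.1 CPM) were above the NC median, and 5 were above all NC samples (6.72 to 16.6 CPM; exact permutation test, two-sided, p = 0.00233, unadjusted). With no filter on low counts, miR-3580-3p had a log2 fold change of 1.29 ± 0.45 (SE; edgeR, adjusted p = 0.255). MiR-129-5p had 20 and 31 counts. Of the 49 Dlk1-Dio3 members with too few counts, 36 had a positive and 13 a negative log2 fold change with no filter on low counts. At an unadjusted p under 0.05, 6 of these 49 were higher and 0 lower in that fit, against 6.76% higher and 4.05% lower of all 518. MiR-540-5p, the opposite arm of a DE-microRNA, had 9 counts in NC and 1 in VSD serum.

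MiR-488-3p was scarce and lower in VSD serum. It had 54 counts over the NC samples and 3 over the VSD samples, at 10.5 to 26.98 CPM in the NC group (median 19.01) and 0 to 3.51 CPM in the VSD group (median 0). All 7 VSD samples lay below all NC samples, which among the 518 listed microRNAs was so of this one and miR-301a-3p (exact permutation test, two-sided, p = 0.000583 for miR-488-3p, unadjusted and the smallest this test can give). Over the whole group its level was 0.0827 times that of the NC group (95% counting interval 0.0165 to 0.255, which leaves out the spread between samples). With no filter on low counts its adjusted p was 0.0136 by edgeR. MiR-488-3p and miR-540-5p were singled out after their values were seen.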

How the data were processed

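Small RNA of maternal serum was sequenced in 7 NC and 7 VSD samples (TruSeq Small RNA libraries, Illumina HiSeq). The authors converted and quality-filtered the reads (bcl2fastq 2.19 per the submitters' processing notes, and the FASTX-Toolkit) and deposited a raw count of reads per mature microRNA. Which aligner, annotation of microRNAs and genome build were used is not given in the sources used here. Beside the counts, the authors deposited a normalized signal, each count divided by a scaled library total, which was used only as an alternative scaling. The deposited tables also hold the authors' own fold change, log2 ratio and p-value per microRNA, which were not used. Counts of myocardium and amniotic fluid were read for the compartment comparison only.

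The deposited counts were tested with edgeR 4.0.16 in R 4.3.3 (filterByExpr at its defaults, min.count 10 and min.total.count 15, TMM, quasi-likelihood test, Benjamini-Hochberg adjustment over the 219 microRNAs tested). CPM are TMM-scaled, and log2 values add a prior count of 2. Single values were compared by exact permutation over all 3432 groupings, also within the other compartments. The test was checked on simulated counts. DESeq2 1.42.0, limma 3.58.1 on log2(CPM + 1) and the settings listed in the closing section were tried. Plots were made in matplotlib 3.10.9 under Python 3.11.15. Named microRNAs are those that met the DE-microRNA threshold, the 8 lowest p in each direction, list members that passed or were most abundant, the 5 most abundant of NC serum, those the study's text names for serum, those tested whose groups did not overlap, and those under the filter found in 1 group only. The comparison and lists were chosen with earlier results of these data known. Sequences and positions are from RefSeq (GRCr8), matched by microRNA name for 474 of 518 listed microRNAs and 25 of the 30 with an unadjusted p under 0.05. A number shared by an NC and a VSD sample does not mark a pair in the labels.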

Additional observations from a re-analysis of the deposited data

Results flagged for a closer look

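VSD sample 3 stood apart from the other VSD samples in its distance, the mean absolute difference of its log2 CPM from the median of the other 6, which was 0.75 against 0.57 for the next sample. Its gap over the range of the group was 0.573, above Dixon's critical value for 7 samples. Of 54 groups of 7 values examined, this was the 1 that passed. The distances of both groups did not differ by more than other groupings gave (a difference of means of 0.053, exact permutation test, two-sided, p = 0.339).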

How the results depend on the processing

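Directions of the 30 microRNAs with an unadjusted p under 0.05 were the same in all 716 values over 25 alternatives, and 122 of these were no longer under 0.05. Without NC sample 4 or NC sample 6, 9 of the 30 were lost, the most for any sample left out. The number of upregulated DE-microRNAs (10) was 25 with no filter on low counts, 4 with at least 10 counts in every sample, 6 and 7 in both draws of thinned libraries, 5 without both smallest libraries, and 5 to 15 with each sample left out, the lowest without VSD sample 2. Downregulated DE-microRNAs numbered 9 with no filter, 1 without both smallest libraries and 0 to 2 with each sample left out. An unadjusted p under 0.05 was found for 56 with no filter, 16 with at least 10 counts in every sample, 15 and 21 in thinned libraries, and 22 to 42 with each sample left out. An adjusted p under 0.05 was found for 4 with DESeq2, 3 with no filter (miR-291a-5p, miR-292-5p and miR-488-3p), and 0 to 2 with each sample left out (miR-149-5p and miR-99a-5p without NC sample 2, miR-291a-5p and miR-292-5p without VSD sample 6). Dlk1-Dio3 members higher at an unadjusted p under 0.05 (11) numbered 17 with no filter, 5 with at least 10 counts in every sample, and 6 and 7 in thinned libraries. MiR-290-295 members (2) numbered 4, 0, 1 and 1. Fewer microRNAs were tested under the stricter filter and after thinning, and more with no filter; other causes were not tested.

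The smaller total of the VSD libraries, -0.63 on the log2 scale, lay between -0.728 and -0.486 with each sample left out, and its exact permutation p exceeded 0.05 without NC samples 1, 2, 5 or 6 or VSD samples 2 or 4. The number of microRNAs detected was higher by 9.86 in thinned VSD libraries and changed by -13.7 without thinning, and the distance of a sample from its group by -0.002 after thinning, none of them under a p of 0.05. With scaling by library size only, the difference between serum and myocardium was -0.093 for miR-541-5p and -0.221 for miR-494-3p. The authors' library totals, leaving out both smallest libraries and a second thinning were chosen after seeing the data.

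Samples with the same replicate number had deviations that correlated by -0.139 to 0.339, with 5 of 7 pairs over 0.1. Of the 7 NC samples, 1 correlated best with its own number. The labels state no pairing, and these correlations cannot settle whether the numbers mark one. With the replicate block, 13 upregulated and 1 downregulated DE-microRNAs and 35 microRNAs with an unadjusted p under 0.05 were called, 5 of them at an adjusted p under 0.05 (miR-134-5p, miR-291a-5p, miR-382-5p, miR-433-3p and miR-540-3p).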
